A study of Mus musculus with 8 samples.

Results

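Tuft cells are rare chemosensory cells of the intestinal epithelium. They detect luminal cues through a taste-type signalling cascade that ends in the cation channel Trpm5, release the cytokine interleukin 25 and cysteinyl leukotrienes, and need the transcription factor Pou2f3 to form. In intestinal tumours the tuft cell kinase Dclk1 has also been described as a marker of tumour stem cells. The genes examined here were 9 that are widely used to recognise tuft cells: Dclk1, Trpm5, Pou2f3, Gfi1b, Ptgs1, Alox5ap, Avil, Rgs13 and Ltc4s. They were chosen by name, and where a gene had several probes the one brightest on average was used. Of the 9, 8 had a named probe, out of 19057 genes with one, and Ptgs1, encoding cyclooxygenase 1, is not analysed here. The array carried 13 probes for these 8 genes.

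RNA came from small 3-dimensional cultures of mouse intestinal epithelium (C57Bl mice aged 2 to 3 months) that carried the Lgr5-EGFP-IRES-CreER allele and Apcflox/flox. Cre expressed from Lgr5 acts in crypt base stem cells once tamoxifen is added, and all cultures received tamoxifen for 2 days. R-spondin 1, a Wnt agonist that only cells without Apc can do without, was then left out for 18 days in the day 20 group (4 arrays) and for 5 days in the day 7 group (4 arrays). Both groups therefore had the deletion and the selection, no undeleted culture is among the samples, and time since deletion and time in culture cannot be told apart. Nothing in the labels tells if samples of the same day came from different cultures or animals. The p-values thus reflect the variation among these samples alone, part of which may be technical.

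Values are log2 intensities of Illumina mouse beadchips. Between 53.0% and 53.2% of probes per array lay above a background limit of 6.80, the level that an estimated 5% of background probes exceed, and signal close to this limit is compressed. Among day 7 arrays replicate 2 was the least like the rest, with a lowest Pearson r of 0.973 against the other day 7 arrays over the 12466 genes tested (genes are not independent replicates). The day 20 arrays fell into pairs: Xist, transcribed in female cells, was at 10.29 and 10.41 on replicates 2 and 3 and at 6.68 and 6.74 on replicates 1 and 4, against 9.39 to 10.01 on the day 7 arrays. The Y-linked gene Eif2s3y had the opposite pattern, at 8.34 and 8.51 on day 20 replicates 1 and 4 and at 6.66 to 6.73 on the other 6 arrays, so the day 20 samples did not all come from 1 animal.

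Tuft cell genes were dim at both days, and none of the 5 members that could be tested passed the threshold for a change. Those 5, Dclk1, Trpm5, Alox5ap, Avil and Ltc4s, were above the limit on at least 4 of the 8 arrays. At a limma adjusted p under 0.05, 0 of the 5 were called, against 4.85% of the 12466 genes tested. At an unadjusted p under 0.05, 1 of the 5, Alox5ap, passed, against 20.4% of genes tested. The remaining 3, Pou2f3, Gfi1b and Rgs13, had means below the limit at both days. Over all 8 members the median log2 difference, day 20 minus day 7, was -0.031, and over all 19057 genes it was 0.0025. With the background mode subtracted, which stretches dim differences, the members' median was -0.20. Groups did not overlap for 2 members, Alox5ap and Dclk1, both lower at day 20; this was so, in that direction, for 6.84% of genes tested and 4.94% of all genes.

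**Figure D1:**
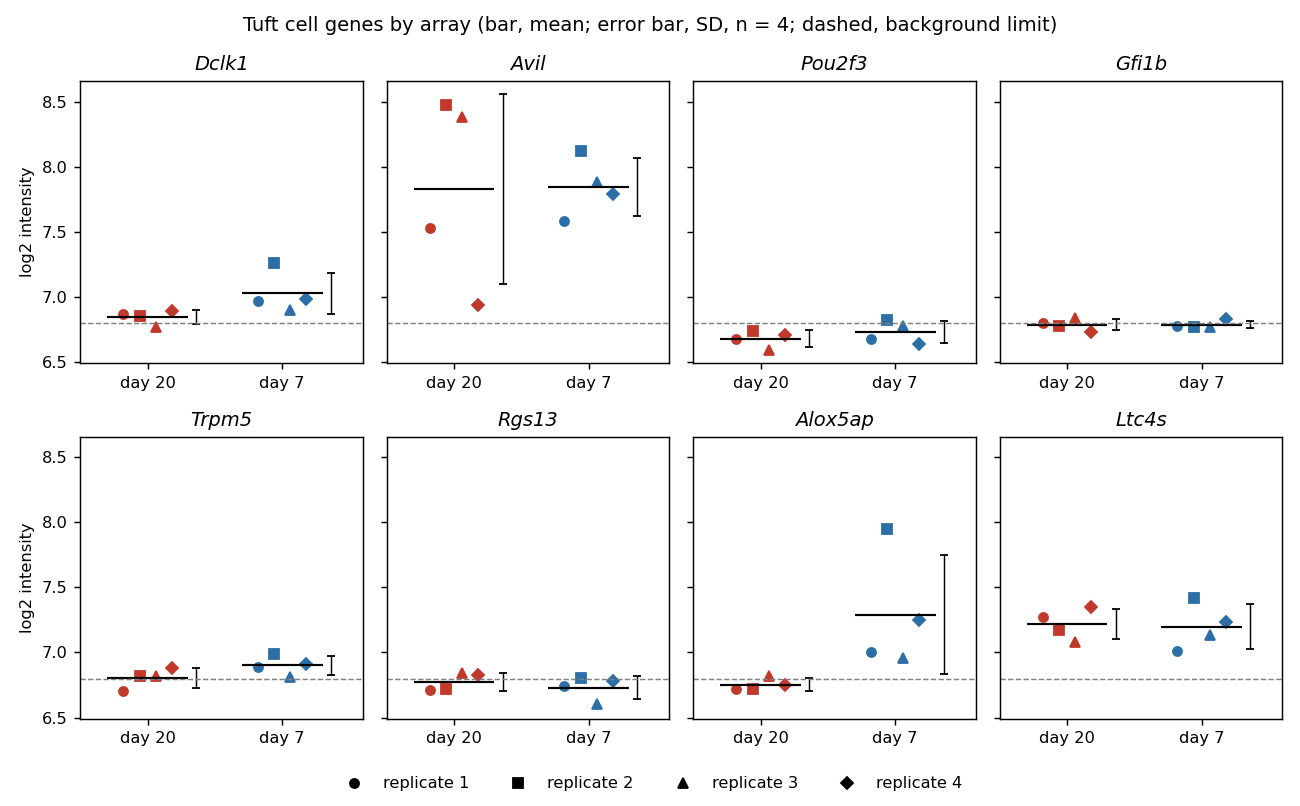
Log2 intensity (vertical axis) of the 8 tuft cell genes on each of the 4 day 20 and 4 day 7 arrays (symbols, replicates 1 to 4), with the mean (bar) and SD (error bar, n = 4) of each day and the background limit of 6.80 (dashed). Alox5ap and Dclk1 did not overlap between the days, Avil spread from 6.94 to 8.47 at day 20, and Pou2f3, Gfi1b and Rgs13 lay around the limit.

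Among the transcription factors, Pou2f3, the factor that tuft cells need to form, gave 6.68, 6.74, 6.59 and 6.71 on day 20 replicates 1 to 4, against 6.68, 6.82, 6.78 and 6.64 on day 7 replicates 1 to 4. Only day 7 replicate 2 exceeded the limit, and the days overlapped. Gfi1b, a zinc finger repressor shared by tuft cells and the erythroid and megakaryocytic lineages, gave 6.80, 6.78, 6.84 and 6.73 at day 20, against 6.78, 6.77, 6.77 and 6.83 at day 7. Its means were equal at 6.79, and its second probe never exceeded the limit. When all 19057 genes were tested, of which 2.71% were called (1.39% lower), none of the 8 members passed. Pou2f3 then had a limma adjusted p of 0.76, Gfi1b of 1 and Rgs13 of 0.80. A level at the limit does not show that a transcript was absent. Atoh1, the master regulator of secretory cells, was below the limit on all 8 arrays too, although transcripts of Paneth and goblet cells were bright (Atoh1 belongs to a list of fate regulators given below).

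The signalling genes were also near background. Trpm5, the channel at the end of the taste-type cascade, gave 6.70, 6.82, 6.82 and 6.88 at day 20, against 6.89, 6.99, 6.81 and 6.91 at day 7. The days overlapped, and the difference of -0.095 had a 95% confidence interval from -0.24 to 0.047 (limma adjusted p = 0.45). A second Trpm5 probe exceeded the limit on 1 array and differed by 0.038. Rgs13, a regulator of G protein signalling, gave 6.71, 6.72, 6.84 and 6.83 at day 20, against 6.74, 6.80, 6.60 and 6.78 at day 7, with 3 of the 8 arrays above the limit. Dclk1, a microtubule-associated kinase, gave 6.87, 6.85, 6.77 and 6.89 at day 20, against 6.97, 7.26, 6.90 and 6.98 at day 7. Every day 20 value was below every day 7 value, but the difference of -0.18 did not pass (limma SE 0.083, 95% confidence interval -0.37 to 0.0080, adjusted p = 0.26). Its size rested on day 7 replicate 2, without which it was -0.105 (adjusted p = 0.39). Both other Dclk1 probes, whose accessions are cDNA clones, averaged below the limit, at 6.72 and 6.62 over all arrays.

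Of the leukotriene genes, Alox5ap was the member with the widest gap between the days, and Ltc4s differed little. Alox5ap, encoding the membrane protein that presents arachidonic acid to 5-lipoxygenase, gave 6.72, 6.72, 6.82 and 6.75 at day 20, against 7.00, 7.95, 6.96 and 7.25 at day 7. All 4 day 7 arrays were above the limit and above every day 20 array, of which 1 exceeded the limit. Day 20 arrays averaged 6.75 ± 0.047 and day 7 arrays 7.29 ± 0.46 (SD over 4 arrays), and the difference of -0.54 missed the threshold (limma SE 0.20, 95% confidence interval -0.997 to -0.078, adjusted p = 0.18). The second Alox5ap probe gave 6.66, 6.80, 6.73 and 6.68 at day 20, against 6.85, 7.51, 6.92 and 6.92 at day 7, again without overlap. Without day 7 replicate 2, the brightest array for both probes, the difference at the first was -0.32 (adjusted p = 0.079). With the background mode subtracted it was -1.66 and passed (adjusted p = 0.034); over the 16 alternative settings this was the only one in which a member was called. Ltc4s, encoding leukotriene C4 synthase, the next step of the pathway, gave 7.27, 7.17, 7.08 and 7.35 at day 20, against 7.01, 7.42, 7.13 and 7.23 at day 7. It was above the limit on all 8 arrays, the days overlapped, and the difference of 0.020 had a 95% confidence interval from -0.21 to 0.25 (limma adjusted p = 0.94).

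Avil, encoding advillin, an actin-bundling protein of the tuft cell's apical bristles, was the brightest member but was uneven at day 20. It gave 7.53, 8.47, 8.38 and 6.94 on day 20 replicates 1 to 4, against 7.58, 8.12, 7.88 and 7.79 on day 7 replicates 1 to 4. The day 20 arrays split as Xist did, with replicates 2 and 3 above every day 7 array and replicates 1 and 4 below them. Day 20 arrays averaged 7.83 ± 0.73 and day 7 arrays 7.84 ± 0.22 (SD over 4 arrays), and the 95% confidence interval of the difference ran from -0.76 to 0.74 (limma adjusted p = 0.99). Limited to the 6 arrays that had Xist signal, the difference was 0.58 and still did not pass (adjusted p = 0.11). The sex of the cells and the culture they came from cannot be told apart here.

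By Pearson r over the 8 arrays among the genes tested, given as a description because the arrays also share day and replicate effects, the genes most like Avil were Rerg (0.98), Blvrb (0.97), Rdh9 (0.96), Cmip (0.95) and Casp9 (0.94). Blvrb, a biliverdin reductase, gave 9.59, 10.59, 10.61 and 9.30 at day 20, against 9.80, 10.10, 9.91 and 9.97 at day 7, the same split of the day 20 arrays. Blvrb differed by 0.0775 over all arrays (limma adjusted p = 0.92) and by 0.655 over the 6 that had Xist signal (0.022). As Blvrb was chosen for its likeness to Avil, its split and the second difference are no separate evidence. The genes most like Alox5ap were Gdf9 (0.988), Sh2d6 (0.986), Acy1 (0.986), Ube2l6 (0.985) and Pigc (0.98). Sh2d6, an adaptor protein gene that is itself a tuft cell marker, gave 6.67, 6.74, 6.71 and 6.70 at day 20, against 6.82, 7.29, 6.81 and 6.88 at day 7. It was above the limit on every day 7 array and on no day 20 array by any of its probes, at least 1.11-fold lower at day 20 (the limit taken as its day 20 level), without passing (limma adjusted p = 0.25). For Dclk1 they were Fmo1 (0.975), Fmo4 (0.97), Cox7a1 (0.97), Rhoc (0.97) and Apob (0.97). Apob, an apolipoprotein gene of absorptive enterocytes, gave 7.17, 7.13, 7.16 and 7.17 at day 20, against 7.88, 10.16, 7.53 and 7.79 at day 7. As Apob was chosen for its likeness to Dclk1, it is no separate evidence that it was brightest on the same day 7 array as Dclk1 and Alox5ap.

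That array, day 7 replicate 2, was the brightest of the 8 for 5 of the 8 members: Dclk1, Trpm5, Pou2f3, Alox5ap and Ltc4s. Of all genes tested 15.2% had their highest value there. The counts for members and lists in this paragraph also include genes too dim to be tested, so they do not share that base. In a wider list of 68 other genes reported in tuft cells, of which 65 had a named probe, it was the brightest for 18 (27.7%). Among these, named after their values were seen, were Lrmp at 7.62 (6.81 to 7.02 at day 20; 7.00 to 7.11 on the other day 7 arrays), Kctd12 at 7.29 (6.61 to 6.77; 6.83 to 6.97) and the 5-lipoxygenase gene Alox5 at 6.98 (6.70 to 6.81; 6.71 to 6.86). Genes of other lists had their highest value on this array too: 10 of 16 goblet and 8 of 26 enteroendocrine genes with a probe, but 1 of 14 Paneth genes, were brightest there, and Krt20, of differentiated epithelium, was at 11.44 against 9.18 to 9.63 on the other day 7 arrays. A tie was counted for the first array in order, day 20 before day 7. Fyb and Hmx2 of the wider list and the enteroendocrine gene Cpe are counted here although a later day 7 array had the same value. In bulk RNA more cells of a type and more RNA per cell cannot be told apart.

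**Figure D2:**
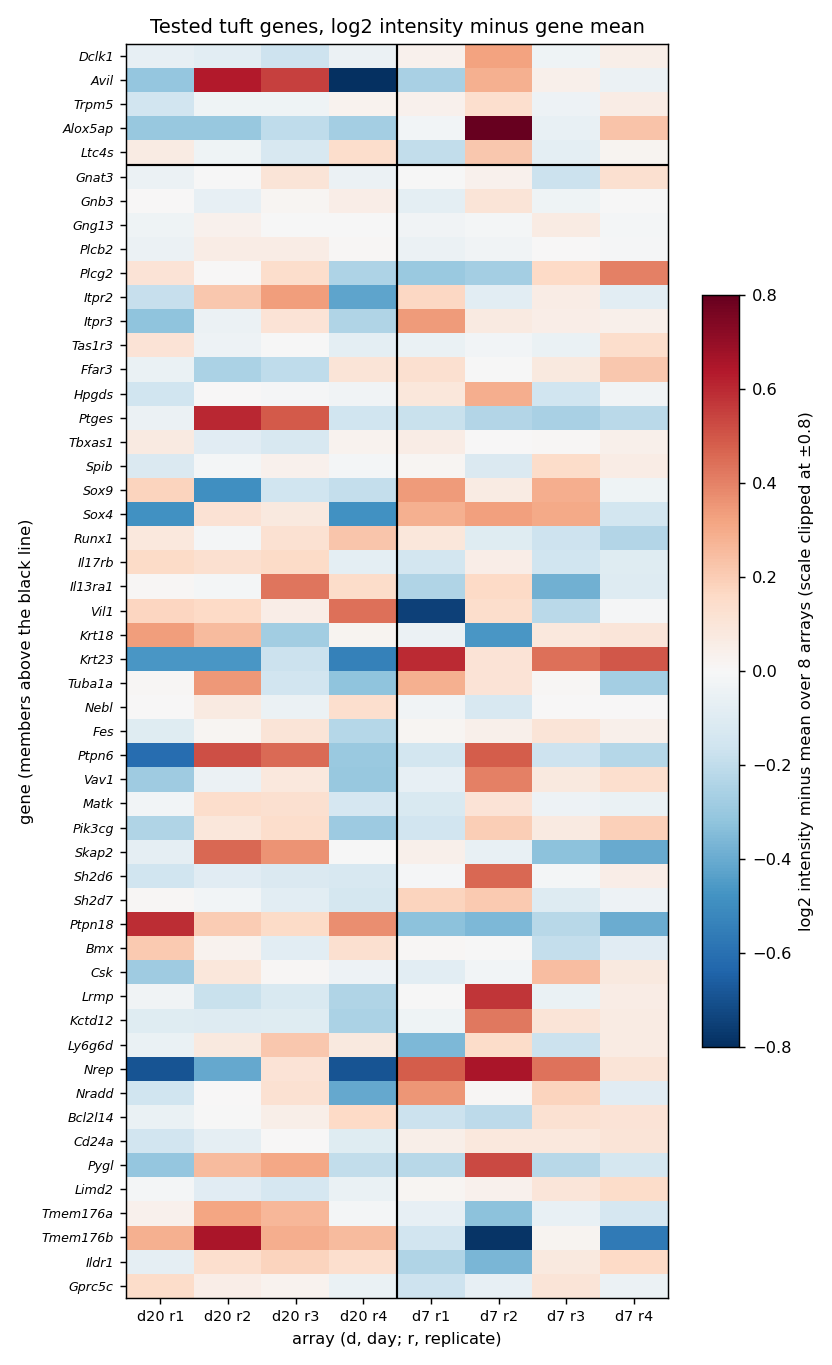
Log2 intensity minus the gene's mean over 8 arrays for the tested tuft cell genes (rows; the 5 members above the black line, 47 genes of the wider list below), with the 4 day 20 arrays left and the 4 day 7 arrays right. Alox5ap, Sh2d6, Lrmp and Kctd12 were brightest on day 7 replicate 2, and Avil, Ptges and Ptpn6 were higher on day 20 replicates 2 and 3 than on replicates 1 and 4.

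In the wider list the share called was near that of all genes. Of its 47 tested genes 2 fell and 1 rose (limma adjusted p under 0.05; background 2.33% of genes tested lower and 2.51% higher), in all 6.38% against 4.85%. At an unadjusted p under 0.05 there were 13 (27.7%), against 20.4% of genes tested. The median difference was -0.022 over the 65 genes with a probe. Krt23, a keratin that was bright at both days, fell by 0.82, to 13.04 ± 0.16 at day 20 against 13.86 ± 0.21 at day 7 (SD over 4 arrays, limma adjusted p = 0.0090), and missed the threshold when limited to the 6 Xist-positive arrays (adjusted p = 0.068). Nrep, encoding a small neuronal regeneration-related protein, fell by 0.835 (8.23 ± 0.38 at day 20, 9.06 ± 0.23 at day 7; adjusted p = 0.048). Its call was lost in 11 of 16 alternative settings: with every array left out in turn except day 20 replicate 3 (0.052 to 0.12), with the replicate number as a block (0.056), after cyclic loess (0.055), among all genes unfiltered (0.072) and when limited to the 6 Xist-positive arrays (0.21). Ptpn18, a tyrosine phosphatase gene, rose by 0.655, to 8.69 ± 0.20 at day 20 against 8.03 ± 0.077 at day 7 (adjusted p = 0.011). These 3 genes were at 7.96 or higher on every array, brighter than most of the members.

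None of the 9 tested genes of the taste-type cascade was called, nor had any an unadjusted p under 0.05. Of all genes tested 4.85% were called and 20.4% had such an unadjusted p, so a list this short would hold few calls at those shares. Nearest to the threshold were Ffar3, a short-chain fatty acid receptor gene (difference -0.205, limma adjusted p = 0.25), and Itpr3, the inositol trisphosphate receptor gene that acts upstream of Trpm5 (-0.25, adjusted p = 0.25). Gnat3, the gustatory G protein gene, averaged 6.85 at day 20 and 6.84 at day 7, and the succinate receptor gene Sucnr1 was above the limit on 1 array only, day 7 replicate 2. Among 6 genes of cytokines, their receptors and choline acetyltransferase (Chat), Il25 exceeded the limit on 1 array, at 6.87 on day 20 replicate 1. The tested ones were Il17rb (difference 0.18, adjusted p = 0.24) and Il13ra1 (0.285, adjusted p = 0.29), which encode receptor chains for interleukins 25 and 13. At an unadjusted p under 0.05, 1 of these, Il17rb, passed.

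Of 7 further eicosanoid genes 3 were tested and none was called, with 1 at an unadjusted p under 0.05 (4.85% and 20.4% of all genes tested). That gene was Ptges, the inducible prostaglandin E synthase gene. It gave 6.92, 7.57, 7.46 and 6.81 at day 20, against 6.79, 6.73, 6.71 and 6.75 at day 7, and did not pass over all 8 arrays (difference 0.445, limma adjusted p = 0.18). No day 7 array exceeded the limit at this probe, but the other Ptges probe did exceed it at day 7. At the probe used, the excess lay mostly on day 20 replicates 2 and 3. Ptges met the filter through its day 20 arrays alone. Limited to the 6 Xist-positive arrays, it was higher by 0.77 (adjusted p = 0.0045), and 272 genes were called higher in that setting. This setting keeps only 2 day 20 arrays, those where Ptges was brightest, so that call is no support for a rise. Hpgds, the hematopoietic prostaglandin D synthase gene, differed by -0.0975 (adjusted p = 0.64), and Ptgs2, encoding cyclooxygenase 2, never exceeded the limit. Among the further transcription factor genes 4 were tested and none was called, with 2 at an unadjusted p under 0.05: Runx1 (0.205, adjusted p = 0.22) and Sox9, which Paneth and stem cells also express (-0.33, adjusted p = 0.24). Spib, a factor of tuft cells and of some lymphoid cells, gave 6.73 to 6.88 at day 20 and 6.73 to 6.99 at day 7.

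The split of the day 20 arrays seen for Avil ran through much of the wider list. For 21 of its 47 tested genes (44.7%), both arrays with Xist signal were above both without it, against 22.0% of all genes tested, and for 6 (12.8%) both were below, against 19.3%. Ptpn6, encoding the phosphatase SHP-1, was chosen after its values were seen as an example, at 8.43, 9.55, 9.49 and 8.74 at day 20, against 8.89, 9.52, 8.87 and 8.81 at day 7. Of the 5 tested members, this order held for 1, Avil, and was inverted for 2. The order was not particular to tuft cell genes. Most tested Paneth genes had it, such as Ang4 (9.65, 11.58, 12.61 and 9.56 on day 20 replicates 1 to 4), though Nupr1 did not. Most tested goblet genes had it too, such as Muc2 (7.12, 7.20, 7.76 and 6.89), though Clca1 and Zg16 did not. No test was made of this split, which was noticed in these data.

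Several tuft cell genes are shared with blood cells, so markers of those cells were examined. Of 13 leukocyte markers with a probe 6, among them Ptprc (CD45) and Lyz2, were below the limit on all arrays. The mean log2 intensity over the list was 6.79 to 6.86 on day 20 arrays and 6.77 to 6.81 on day 7 arrays, and 1 marker, Laptm5, was called, higher at day 20 (difference 0.565, limma adjusted p = 0.042). Over 9 mast cell markers the list mean was 6.77 to 6.81 at day 20 and 6.89 to 6.96 at day 7. Of these 9, Mcpt1 and Ms4a2 were above the limit on none of the 8 arrays, while the protease gene Cpa3 and the IgE receptor gene Fcer1a were above it on 7, at no more than 6.96. Kit, which epithelial secretory cells also express, was the marker that differed (-1.31, adjusted p = 0.0055). The list mean of 6 megakaryocyte and erythroid markers was 6.72 to 6.785 at day 20 and 6.75 to 6.77 at day 7, with none called. Of all genes tested 4.85% were called. On day 7 replicate 2, where Alox5ap was highest, 3 of 13 leukocyte markers exceeded the limit (Csf1r at 7.09, Laptm5 at 7.00 and Coro1a at 6.89). So did 3 of 9 mast cell markers (Kit at 8.53, Fcer1a at 6.94 and Cpa3 at 6.91). Of 6 megakaryocyte and erythroid markers 4 exceeded it, all narrowly (Klf1 at 6.89, Itga2b at 6.84, Gp9 at 6.82 and Pf4 at 6.80). Of all probes on this array, dimmer probes of a gene included, 53.0% exceeded the limit. The part of these markers in the Alox5ap values was not tested.

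Genes of the other secretory lineages were set beside the tuft cell genes. At a limma adjusted p under 0.05, 2.33% of all genes tested were called lower and 2.51% higher. Enteroendocrine genes were called lower in 20 of 22 tested, with a median difference of -1.24 over 26 with a probe (-2.56 with the background mode subtracted). Goblet genes were called lower in 4 of 12 tested, with a median of -0.635 over 16. When only Xist-positive arrays were used, 2 goblet genes were called lower and the median was -0.365. Of 14 tested Paneth genes 1 was called lower and 1 higher, with a median of -0.68, or -0.019 when limited to the 6 Xist-positive arrays. Day 20 means, called or not, were lower for 5 of 8 members. They were lower for 26 of 26 enteroendocrine, 14 of 16 goblet and 12 of 14 Paneth genes with a probe. Examples are the carboxypeptidase E gene Cpe, which fell by 1.675 (limma adjusted p = 4.03e-05), the goblet lectin gene Zg16, which was at 6.765 ± 0.056 at day 20 against 13.595 ± 0.93 at day 7 (SD over 4 arrays, adjusted p = 0.000145), and the Paneth cell gene Pnliprp2, a pancreatic lipase-related protein (-2.285, adjusted p = 0.037). The incretin gene Gip (-2.70), the granin-family gene Scg5 (-1.375), the mucin gene Muc2 (-3.12) and the goblet gene Clca1 (-2.23) fell as well, and Clca1 missed the threshold on the Xist-positive arrays (adjusted p = 0.073). The Paneth list gene Habp2 differed by -1.11 without passing (0.059). Pnliprp2 lost its call in 8 of 16 alternative settings, among them each array left out except day 20 replicates 2 and 3 (0.069 to 0.088), and on the Xist-positive arrays its difference was -1.3175 (0.010). The matrix metalloproteinase gene Mmp7, also of Paneth cells, rose by 0.83 (adjusted p = 0.016; 0.052 without day 7 replicate 1). The difference between these lists and the tuft cell genes was not tested, since the lists were chosen with results known.

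**Figure D3:**
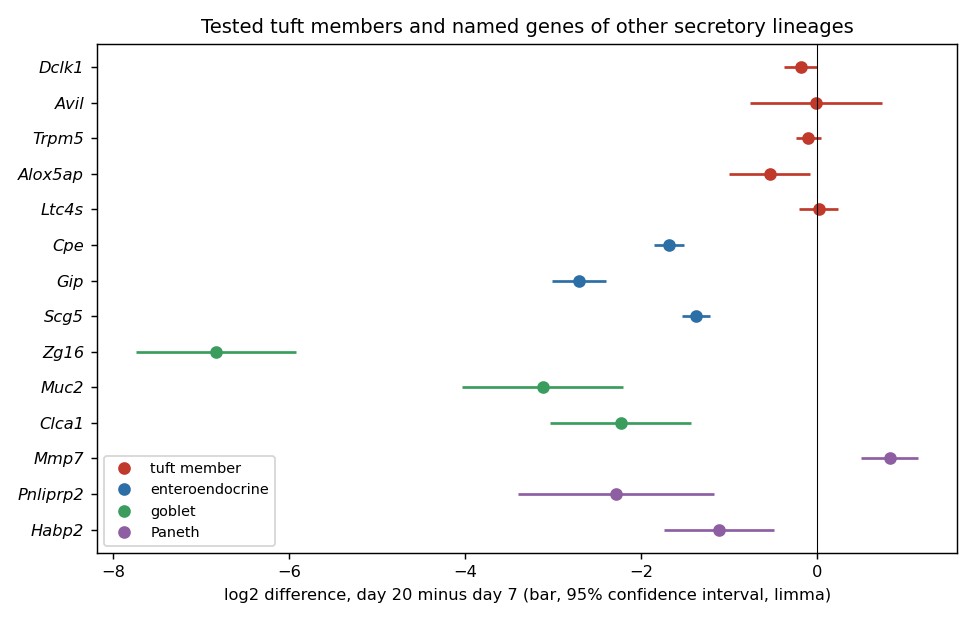
Log2 difference, day 20 minus day 7 (horizontal axis), with its 95% confidence interval (limma) for the 5 tested tuft cell genes and for the 3 genes with the smallest adjusted p of the enteroendocrine, goblet and Paneth lists. The intervals of 4 of the 5 tuft cell genes include 0; that of Alox5ap ends at -0.078, but its adjusted p was 0.18.

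The lists also differed in brightness. The day 7 means of the 5 tested members stood above the limit by 0.10 (Trpm5) to 1.05 (Avil). By contrast 13 of 26 enteroendocrine, 9 of 16 goblet and 11 of 14 Paneth genes had day 7 means over 8. A range of day 7 means between the limit and 7.5, set after the values were seen, held 4 members, 29 genes of the wider tuft list, 7 enteroendocrine, 1 goblet and 2 Paneth genes. With all 19057 genes tested, those called lower in this range were 0 members, 0 wider tuft genes, 5 enteroendocrine, 0 goblet and 0 Paneth genes, against 0.898% of all 5125 genes in it. The part of brightness in the members' results was not tested.

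**Figure D4:**
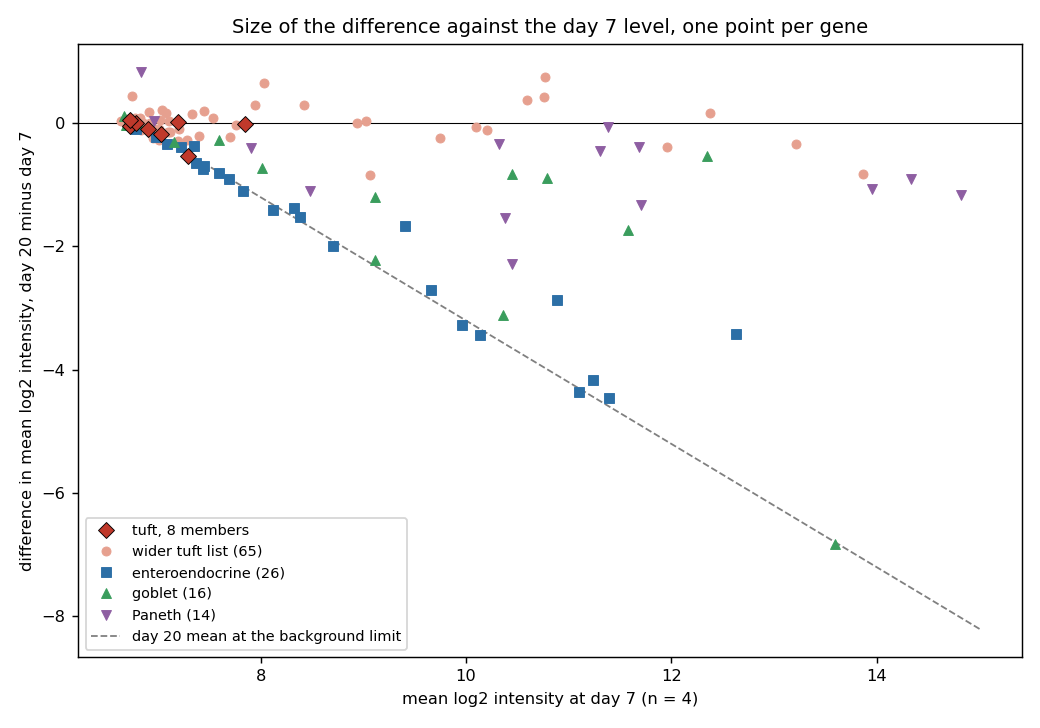
Difference in mean log2 intensity, day 20 minus day 7 (vertical axis), against the mean at day 7 (horizontal axis, n = 4), 1 point per gene with a probe. The dashed line marks a day 20 mean at the background limit. The median day 20 mean of enteroendocrine genes was 6.75. The 8 tuft cell genes lie between 6.73 and 7.84 at day 7. At the day 7 means of the 5 tested members the line is below 0 by 0.10 (Trpm5) to 1.05 (Avil).

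Regulators of secretory fate, several of which act before the lineages part, did not pass either. Of 6 tested, none was called or had an unadjusted p under 0.05 in limma, against 4.85% and 20.4% of all genes tested. The differences were 0.105 for Gfi1, a repressor related to Gfi1b that acts in goblet and Paneth cells (adjusted p = 0.65), -0.0050 for the Notch ligand gene Dll1 (0.99) and -0.1025 for Dll4 (0.31). They were -0.155 for the Notch target gene Hes1 (0.66), 0.0625 for Hes5 (0.59) and 0.010 for the receptor gene Notch1 (0.98). Hes1 was bright, with 10.14 ± 0.17 in day 20 arrays and 10.30 ± 0.33 in day 7 arrays (SD over 4 arrays), far from the background limit.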

How the data were processed

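Per the labels' protocols, biotinylated cRNA of 8 organoid RNA samples was made for Illumina arrays. The authors deposited log2 intensities (6.45 to 15.43) whose median was 6.81 on every array, and the sources used here do not give the software, the normalization or any background correction. A second deposited table was not used, because its 16 columns of per-sample values match no sample label; the deposited log2 values took its place.

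Gene names came from the platform annotation, which gives a single symbol to 34885 of 45281 probes, several to 18, and does not list 10378. The background limit of 6.80 lies above the mode of all values (6.7) by the one-tailed normal deviate at 0.05 multiplied by 0.0584, the spread (SD) of the values up to that mode. Genes above it on at least 4 of 8 arrays were tested, 12466 of 19057, with limma 3.58.1 in R 4.3.3 (lmFit, eBayes, two-sided, Benjamini-Hochberg adjustment over all genes tested); the procedure was tested on simulated data. Plots used Python 3.11.15 and matplotlib 3.10.9. Arrays carry no depth, so precision depends on how many there are and how far samples differ. Limma SEs were small near background, where signal is compressed (Trpm5, 0.062), and larger for some bright genes (Defa26, 0.85).

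Members and lists were chosen with earlier results of these data known, so lists carry no test. Named were all members, the called or otherwise 2 best genes of each wider tuft list, 3 genes of each other secretory list by adjusted p, all tested fate regulators, and the 5 genes most like each of the 3 most variable tested members. Alternatives were a replicate block, a stricter filter (0.01) or none, cyclic loess, averaged probes, trend with robust variance, background mode subtracted (offset 16), each array left out, and the 6 arrays with Xist signal.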

Additional observations from a re-analysis of the deposited data

Results flagged for a closer look

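Of 98 groups of 4 arrays examined for the named genes, 9 held an array far from the others; chance flags about 1 in 20, and genes named for their likeness to a member are not independent of it. On day 7 replicate 2 these were Gdf9 at 8.35 (7.09 to 7.24 on the other day 7 arrays), Sh2d6 at 7.29 (6.81 to 6.88), Fmo1 at 7.75 (7.19 to 7.21), Cox7a1 at 10.70 (8.28 to 8.61) and Apob at 10.16 (7.53 to 7.88). On day 7 replicate 4 Gfi1b was at 6.83 (6.77 to 6.78), a gap of the size of background noise, and Hes1 at 9.81 (10.43 to 10.48). Itpr3 was at 9.96 on day 7 replicate 1 (9.66 to 9.69). Il17rb was at 6.92 on day 20 replicate 4 (7.13 to 7.15 on the other day 20 arrays).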

How the results depend on the processing

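Beside 604 genes called over all arrays (313 higher, 291 lower), the counts with each array left out in turn were 301 to 579 called, 140 to 251 higher and 161 to 328 lower. The replicate numbers were not shown to pair the samples: deviations of same-numbered arrays correlated at 0.12, 0.050, -0.0096 and 0.14, and 2 of the 4 day 20 arrays matched their own number best. With the replicate block 401 genes were called, 207 of them higher, and 1 wider tuft gene was lower in place of 2; no other count of tuft cell or secretory genes moved by over 1.5 times. On the 6 arrays with Xist signal 141 genes were lower, 2 wider tuft genes were higher in place of 1 and 0 lower, and 2 goblet genes were lower in place of 4. Wider tuft genes called lower numbered 1 under cyclic loess and 1 with no filter, and those higher numbered 2 with an intensity trend and robust variance; over the arrays left out each count was 1 to 2. Goblet genes called lower numbered 7 with the trend and 7 with the background mode subtracted. Paneth genes called lower numbered 0 without the filter, 2 after subtraction of the background mode and 0 to 2 over the arrays left out, against 1. Tuft members called lower numbered 1 with the background mode subtracted, which stretches dim differences, and 0 in the 15 other settings. The cause of these shifts was not tested, beyond the fewer arrays or other genes that a setting itself brings.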
